A study of Mus musculus with 6 samples.

Results

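The IL-1 receptor family was described here through 10 genes, chosen by name: the receptor chains for interleukin 1, interleukin 18 and interleukin 33, the inhibitory family member Sigirr, and the signalling genes Myd88, Irak2 and Irak3. All 10 were found among the 22271 Ensembl genes of the deposited table, and all 10 passed the filter on low counts that left 12850 genes for testing. RNA sequencing had been done on CD27 low MOP cells and CD27 high MODP cells, progenitors sorted from bone marrow of C57BL/6JRj mice. There were 3 libraries per population, and no treatment was given in the labels. The titles of all libraries carry WT, read here as wild type. The series' title places a bipotent progenitor of macrophages and osteoclasts downstream of a progenitor that can also give dendritic cells, and the comparison set MOP against MODP. The labels do not say whether the libraries of a population came from separate animals, so the tests measure the spread between libraries, which may be partly technical.

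Receptors of this family work in pairs. A ligand-binding chain (IL1R1 for interleukin 1, ST2 for interleukin 33, IL-18Rα for interleukin 18) recruits an accessory chain, and the paired cytoplasmic TIR domains bind the adaptor MyD88, which assembles IRAK kinases and leads through TRAF6 to NF-κB and MAP kinases. The decoy receptor IL1R2, the family member SIGIRR and the kinase-like protein IRAK-M hold the pathway back. In bone marrow, interleukin 1 acts on stem and myeloid progenitor cells, and basophils, mast cells and natural killer cells are known for receptors for interleukin 33 or interleukin 18.

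The libraries held 13338577 to 15892640 counts in MOP and 10701425 to 13846749 in MODP. Levels are given as CPM, the reads of a gene per 1000000 reads after TMM scaling. The sort marker Cd27 went with the labels, at 3.52 to 4.57 CPM in MOP and 35.4 to 38.9 CPM in MODP. Replicate 2 of each population stood apart in neutrophil genes: the sum of 12 neutrophil markers was 3128, 12345 and 5383 CPM in MOP replicates 1 to 3, and 3892, 17363 and 2433 CPM in MODP replicates 1 to 3. All 12 of these markers were highest in replicate 2 of both populations. Member and ligand results in which replicate 2 stands apart are also given without it.

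The members did not move as a block. Il1rl1, Il18r1, Myd88 and Irak2 rose in MOP, Il1r1 fell, and Il1r2, Il1rap, Il18rap, Sigirr and Irak3 did not pass the test. Genes were tested by quasi-likelihood in edgeR, with p-values adjusted by Benjamini-Hochberg over all 12850 genes and a threshold of 0.05. Among all tested genes 31.2% passed it, 16.3% as higher in MOP and 14.9% as lower, so 5 of 10 members stand beside a background of about 1 gene in 3. Of all genes, higher in MOP were 2095 and of all genes, lower in MOP were 1913; under upper-quartile scaling these counts were 1692 and 2452. The median log2 fold change of the 10 members was 0.31, and that of all tested genes was -0.01. The libraries of the populations did not overlap for 8 members, 6 of them higher in MOP and 2 lower, against 47.6% of all tested genes in either direction. The 5 calls were kept in all 14 alternative fits.

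**Figure D1:**
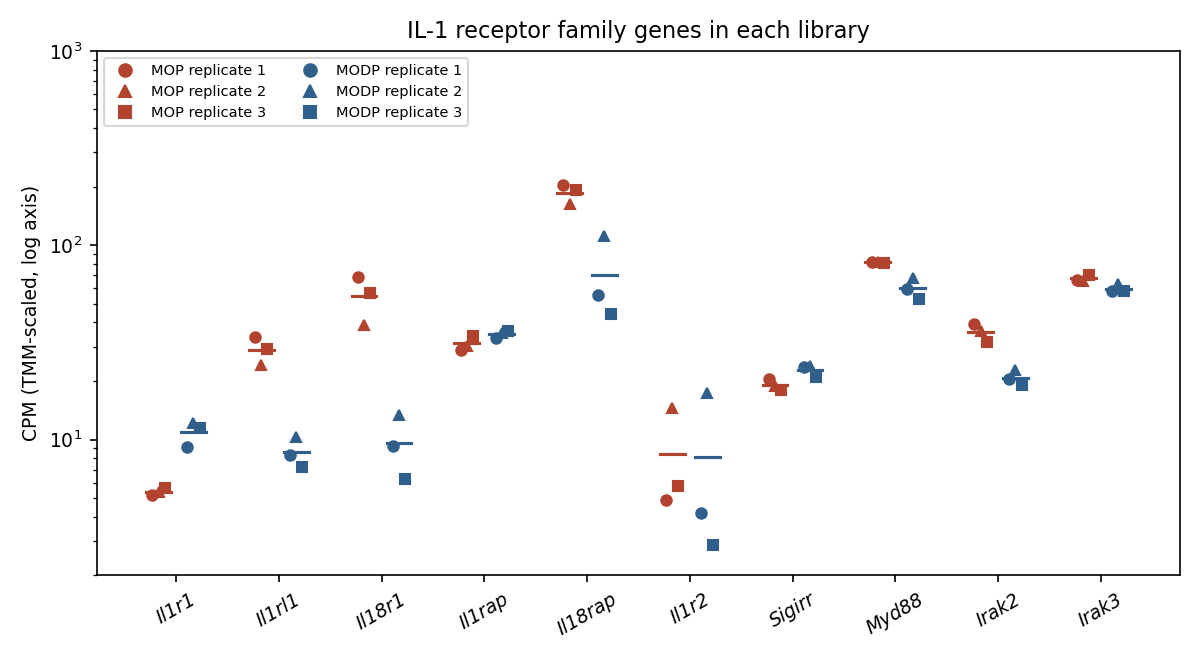
CPM of each member on a log axis; each point is a library, MOP left of MODP within a gene, with the marker shape giving the replicate and the line the mean of 3. Il1rl1 and Il18r1 lie higher in MOP in every library, Il1r1 lies lower, and the replicate 2 triangles of Il1r2 stand above the other libraries of both populations.

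**Figure D2:**
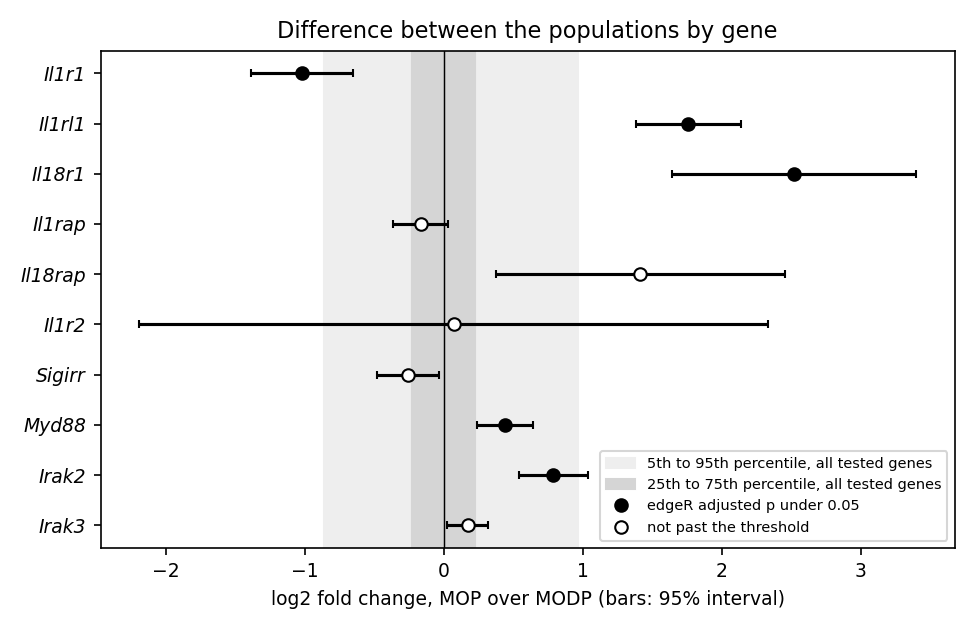
Log2 fold change of MOP over MODP for each member, with 95% intervals from the edgeR fit; filled points passed the threshold, and the grey bands span the 5th to 95th and the 25th to 75th percentiles of all tested genes. Il1r1 lies at -1.02, Il18r1 at 2.52, and the interval of Il1r2 runs from -2.19 to 2.33.

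Among the ligand-binding chains, Il1rl1 (ENSMUSG00000026069) encodes ST2, the receptor for interleukin 33, in a membrane and a soluble form that gene counts do not separate. Its level was 33.6, 24.1 and 29.4 CPM in MOP replicates 1 to 3, against 8.30, 10.3 and 7.24 CPM in MODP replicates 1 to 3. All MOP libraries lay above all MODP libraries, with a wide gap between them. The gene was 3.39-fold higher in MOP, a log2 fold change of 1.76 ± 0.16 (SE, edgeR adjusted p = 0.00038). Without both replicate 2 libraries the log2 fold change was 2.02 (edgeR adjusted p = 0.00014).

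Il18r1 (ENSMUSG00000026070) encodes the chain that binds interleukin 18. It had the largest difference of the 10 members, at 68.6, 38.6 and 56.6 CPM in MOP replicates 1 to 3 and 9.29, 13.4 and 6.25 CPM in MODP replicates 1 to 3. The populations did not overlap; replicate 2 was the lowest library of MOP and the highest of MODP. The fold change was 5.73 (log2 2.52 ± 0.35 SE, edgeR adjusted p = 0.0053). Without both replicate 2 libraries the log2 fold change was 3.02 (edgeR adjusted p = 0.00021). Blocked by column number it was 2.51 (edgeR adjusted p = 0.039).

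Il1r1 (ENSMUSG00000026072) encodes the signalling receptor for both forms of interleukin 1 and was the 1 member to fall. It stood at 5.15, 5.38 and 5.61 CPM in MOP replicates 1 to 3, against 9.13, 12.1 and 11.5 CPM in MODP replicates 1 to 3. These levels rest on 70 to 84 reads per MOP library and 111 to 164 per MODP library. The MOP libraries lay close together and below all MODP libraries, and the gene was 2.03-fold lower in MOP (log2 -1.02 ± 0.16 SE, edgeR adjusted p = 0.0025).

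The accessory chains behaved differently from each other. Il1rap (ENSMUSG00000022514), the chain shared by the interleukin 1 and interleukin 33 receptors, was at 28.9, 30.4 and 34.2 CPM in MOP and 33.3, 35.3 and 36.3 CPM in MODP, and the populations overlapped. Its log2 fold change was -0.17 with a 95% interval of -0.36 to 0.03 (edgeR adjusted p = 0.18). An antisense gene shares 552 bases of its exons, and without a known strand setting its reads could not be told apart.

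Il18rap (ENSMUSG00000026068), the accessory chain of the interleukin 18 receptor, was the member with the most reads. It stood at 203, 163 and 193 CPM in MOP replicates 1 to 3, against 55.3, 111 and 44.0 CPM in MODP replicates 1 to 3. All MOP libraries lay above all MODP libraries, with MODP replicate 2 well above the other MODP libraries. The log2 fold change of 1.42 ± 0.39 (SE) missed the threshold (edgeR adjusted p = 0.056). Without MODP replicate 2 it was 1.91 and passed (edgeR adjusted p = 0.00045), as it did at 2.00 without replicate 2 of both populations (edgeR adjusted p = 0.00011) and by DESeq2 (adjusted p = 0.0067). Blocked by column number it did not (edgeR adjusted p = 0.14).

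These receptor genes sit side by side. In the RefSeq annotation of GRCm38.p6, Il1r2, Il1r1, Il1rl2, Il1rl1, Il18r1 and Il18rap follow one another on chromosome 1 in that order, with Map4k4 before them. The differences changed along the row. Il1r2 showed a log2 fold change of 0.07, Il1r1 fell, and Il1rl2, the interleukin 36 receptor gene, was at 15.6 ± 1.11 CPM in MOP and 14.4 ± 0.842 CPM in MODP (SD, n = 3; edgeR adjusted p = 0.44). The 3 genes after it, Il1rl1, Il18r1 and Il18rap, had log2 fold changes of 1.76, 2.52 and 1.42. Map4k4, a kinase gene outside the family, rose by log2 0.68 ± 0.07 (SE, edgeR adjusted p = 0.00048). The files do not name a genome build, so the order is that of the annotation and not of the deposited table.

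**Figure D3:**
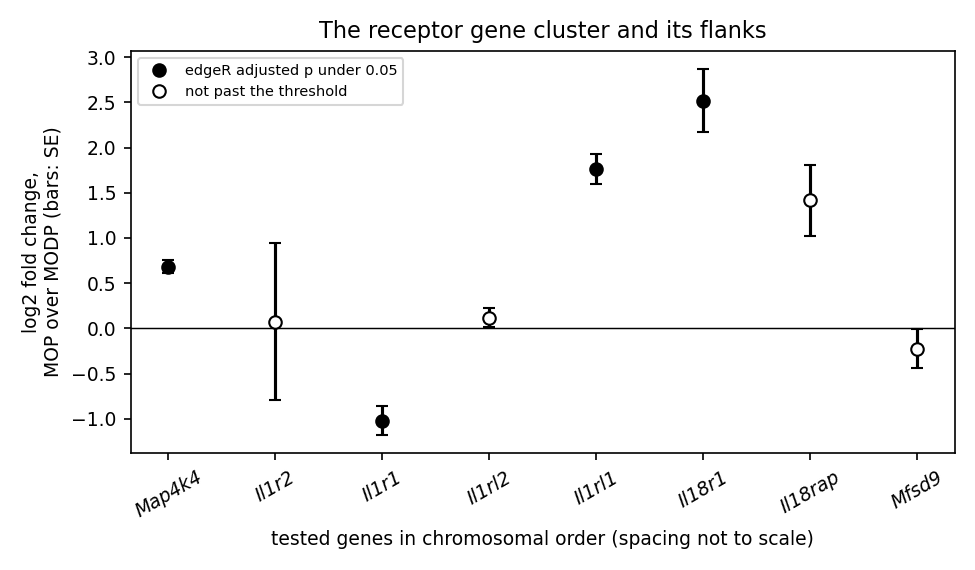
Log2 fold change of MOP over MODP, with SE, for the tested protein-coding genes along the receptor cluster, in chromosomal order and not to scale; filled points passed the threshold. The values are lowest at Il1r1 (-1.02) and highest at Il18r1 (2.52).

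Promoter sequences are shown for the 3 family genes of this row whose MOP libraries all lay above the MODP libraries. They come from RefSeq on GRCm38.p6, 250 bases before to 50 bases after each annotated start, plus strand. RefSeq windows were found for 9 of the 10 members, 14 windows in all. Capitals mark GATA words, searched on both strands: the letters AGATA or TGATA followed by A or G. The Il1rl1 windows lie at chr1:40429320-40429619 and chr1:40439379-40439678, the first of the Il18r1 windows at chr1:40465302-40465601 and the Il18rap window at chr1:40515112-40515411.
Il1rl1 upstream start: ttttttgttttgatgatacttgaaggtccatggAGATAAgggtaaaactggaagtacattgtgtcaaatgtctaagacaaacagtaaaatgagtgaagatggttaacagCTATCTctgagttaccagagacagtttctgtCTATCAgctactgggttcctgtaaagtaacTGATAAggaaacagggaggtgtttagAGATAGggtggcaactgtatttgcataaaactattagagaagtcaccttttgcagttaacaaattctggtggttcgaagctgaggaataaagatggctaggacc
Il1rl1 downstream start: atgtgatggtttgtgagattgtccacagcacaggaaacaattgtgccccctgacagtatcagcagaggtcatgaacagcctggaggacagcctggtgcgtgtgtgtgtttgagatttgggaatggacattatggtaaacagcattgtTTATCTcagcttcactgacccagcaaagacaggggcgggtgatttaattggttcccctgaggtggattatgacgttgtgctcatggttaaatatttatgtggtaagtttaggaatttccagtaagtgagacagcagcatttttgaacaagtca
Il18r1 first start: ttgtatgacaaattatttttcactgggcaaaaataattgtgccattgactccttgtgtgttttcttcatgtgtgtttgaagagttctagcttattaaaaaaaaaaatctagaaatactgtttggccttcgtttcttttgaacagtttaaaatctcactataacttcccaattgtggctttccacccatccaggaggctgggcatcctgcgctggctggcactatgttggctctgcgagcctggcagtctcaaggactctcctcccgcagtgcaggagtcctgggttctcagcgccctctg
Il18rap: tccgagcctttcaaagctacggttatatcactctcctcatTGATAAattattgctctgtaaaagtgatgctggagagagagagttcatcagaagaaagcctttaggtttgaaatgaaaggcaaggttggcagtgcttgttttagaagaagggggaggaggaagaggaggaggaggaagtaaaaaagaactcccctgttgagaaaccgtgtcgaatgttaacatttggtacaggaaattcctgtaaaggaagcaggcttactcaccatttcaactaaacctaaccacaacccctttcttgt

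The upstream Il1rl1 window held 5 GATA words, with first letters at positions -217, -141, -110, -80 and -54 from the start. At least 1 such word is found in 29.8% of all 32851 promoter windows, and at least 5 in 18 of them (0.0548%). The downstream Il1rl1 window held 1 word at -103 and the Il18rap window 1 at -210. Il1r2 held 1 at -86 and the second Irak3 window 1 at -121. None of the 3 Il18r1 windows and neither Il1r1 window held one. The PU.1 core GAGGAA, found in 28.3% of all windows, occurred 2 times in the Il18rap window, at -94 and -79, and once each in the upstream Il1rl1 window at 28 and the second Irak3 window at 34. On the reverse strand it occurred in the third of the Il18r1 windows at -6. The RUNX word TGTGGT (16.8% of windows) occurred in the downstream Il1rl1 window and in the second of the Il18r1 windows, and on the reverse strand in the Il18rap window. The AP-1 word TGANTCA (7.81% of windows) was in none of the 14. A match describes letters only; no binding was measured. Gata2, a GATA factor gene of basophils and mast cells, was at 449, 269 and 371 CPM in MOP and 57.4, 89.5 and 54.3 CPM in MODP (log2 2.44 ± 0.30 SE, edgeR adjusted p = 0.0047, and 0.052 when blocked by column number). Gata3, another GATA factor gene, went the other way at a far lower level. It was at 0.746 ± 0.271 CPM in MOP and 1.94 ± 0.685 CPM in MODP (SD, n = 3; log2 -1.35, edgeR adjusted p = 0.034). The part of either gene in the receptor differences was not tested.

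Markers of basophils and mast cells moved with these receptors. Of 14 listed markers 13 were in the table and 10 were tested. Of these, 9 rose in MOP (16.3% of all tested genes did), 0 fell, and Hdc did not pass. Blocked by column number, 4 rose (Cpa3, Cd200r3, Il4 and Cyp11a1), beside 2724 of all 12850 tested genes. Without both replicate 2 libraries, where more of all genes rose than in the main fit, 9 of the markers did. Their summed level was 3496 to 5500 CPM in MOP and 572 to 1185 CPM in MODP. The basophil protease gene Mcpt8 was at 903, 724 and 1143 CPM in MOP and 102, 229 and 83.3 CPM in MODP (log2 2.74 ± 0.50 SE, edgeR adjusted p = 0.018, and 0.083 when blocked by column number). The mast cell protease genes Tpsb2, Cma1 and Mcpt4 stayed at or below 0.282 CPM in every library. In bulk RNA, more cells of a type and more RNA per cell cannot be told apart. The part of these cells in the receptor differences was not tested.

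Il18r1 was also set against this marker sum within each library. The largest part of the sum was Prss34, at a mean of 2379 CPM in MOP and 278 CPM in MODP. Next came Mcpt8 in MOP, at 923 CPM, and Hdc in MODP, at 185 CPM. The ratio thus mainly compares Il18r1 with a few genes. Reads of Il18r1 equalled 1.46%, 1.11% and 1.03% of the marker reads in MOP replicates 1 to 3, against 1.52%, 1.13% and 1.10% in MODP replicates 1 to 3. The populations overlapped, and the log2 ratio differed by -0.06 between them, or by -0.21 to 0.09 when 1 library was left out (exact permutation p = 0.60, two-sided, n = 3 each), where 3 against 3 libraries cannot go below 0.10. The Il1rl1 reads equalled 0.714%, 0.691% and 0.534% of the marker reads in MOP, and 1.36%, 0.869% and 1.27% in MODP. That ratio was lower in every MOP library, by 0.84 on the log2 scale (exact permutation p = 0.10).

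Natural killer and T cell markers, another source of interleukin 18 receptors, moved the other way. Of 13 listed markers 11 were tested, 0 rose, 8 fell and 3 did not pass, where 14.9% of all tested genes fell. When blocked by column number, beside 2544 of all 12850 tested genes, 10 of the markers fell. Their summed level was 71.4 to 110 CPM in MOP and 231 to 300 CPM in MODP, and Nkg7 made up most of it. Markers of group 2 innate lymphoid cells, which carry ST2, summed to 25.04 to 38.5 CPM in MOP and 27.6 to 38.4 CPM in MODP. Il17rb, Il7r and Rora made up most of these sums. Of the 5 tested markers on this list Gata3 fell and 4 did not pass, where 14.9% of all tested genes fell. Blocked by column number, Gata3 and Bcl11b fell, beside 2544 of all 12850 tested genes. Both genes rest on few reads, 1 to 40 per library. Without both replicate 2 libraries 0 of the 5 fell and Rora rose. That fit called more genes than the main fit in both directions.

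**Figure D4:**
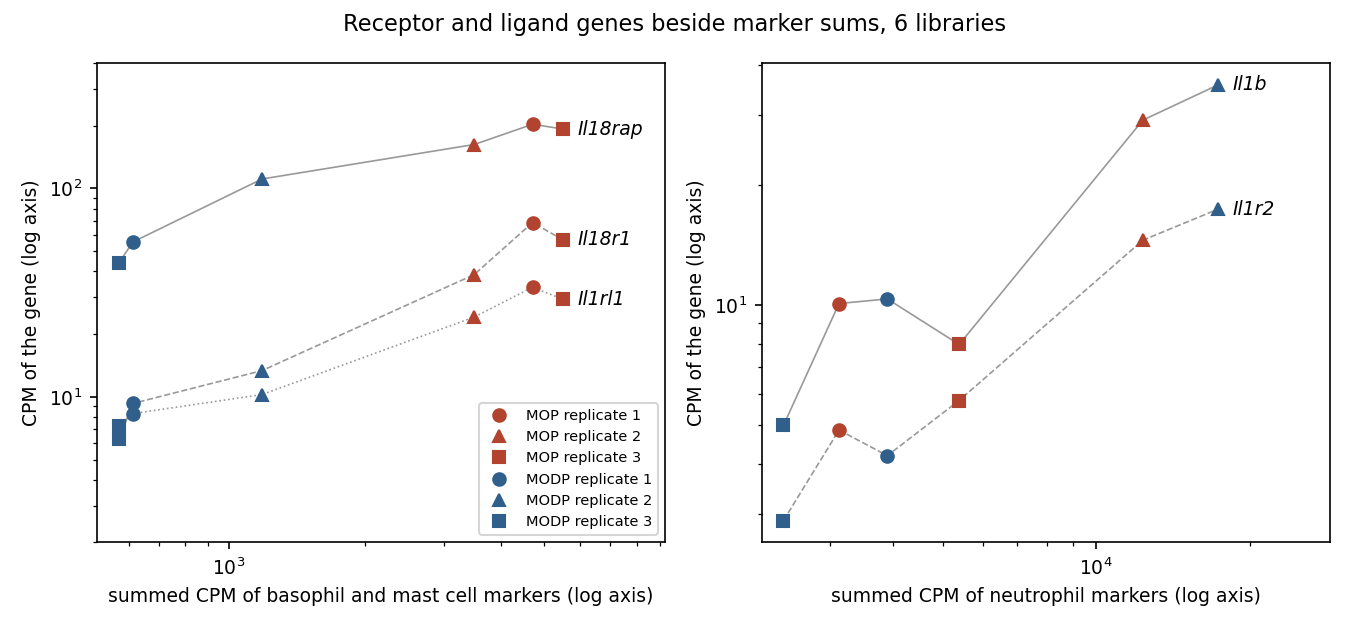
Left, CPM of Il18rap, Il18r1 and Il1rl1 against the summed CPM of basophil and mast cell markers; right, CPM of Il1b and Il1r2 against the summed CPM of neutrophil markers, log axes throughout, 1 point per library with a line joining each gene's points. MOP libraries sit at 3496 to 5500 and MODP libraries at 572 to 1185 on the left axis, and the replicate 2 libraries of both populations lie at the upper end on the right.

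Ratios between chains were also taken within each library. Reads of Il1rl1 equalled 116%, 79.4% and 85.8% of the Il1rap reads in MOP replicates 1 to 3, against 25.03%, 29.2% and 20.0% in MODP replicates 1 to 3, with no overlap. Reads of Il18rap were 296%, 421% and 341% of the Il18r1 reads in MOP and 593%, 828% and 700% in MODP, again with no overlap. Reads of Il1rl1 were 49.0%, 62.6% and 51.9% of the Il18r1 reads in MOP and 89.4%, 76.8% and 116% in MODP. For each of these 3 ratios the exact permutation p was 0.10, the smallest that 3 against 3 allow; adjusted over the 6 ratios computed it was 0.15. These percentages compare reads, which also scale with transcript length.

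Of the brakes at the receptor level, neither Il1r2 nor Sigirr passed the threshold in the main fit. For Il1r2 the interval was too wide to tell whether the populations differed. Il1r2 (ENSMUSG00000026073), the decoy that binds interleukin 1 without signalling, was at 4.86, 14.5 and 5.76 CPM in MOP replicates 1 to 3 and 4.19, 17.4 and 2.88 CPM in MODP replicates 1 to 3. Replicate 2 was highest in both populations, as it was for the neutrophil marker sum, and the part of neutrophils in it was not tested. The log2 fold change was 0.07 with a 95% interval of -2.19 to 2.33 (edgeR adjusted p = 0.96). Blocked by column number it was 0.22 ± 0.24 (SE, edgeR adjusted p = 0.51), and without both replicate 2 libraries it was 0.60 (edgeR adjusted p = 0.12). The reads of Il1r2 relative to Il1r1 were 94.3%, 269% and 103% in MOP, against 46.2%, 143% and 25.2% in MODP, and the populations overlapped (exact permutation p = 0.30).

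Sigirr (ENSMUSG00000025494), an inhibitory receptor of the family, was at 20.5, 18.8 and 18.0 CPM in MOP and 23.6, 24.0 and 21.0 CPM in MODP. Every MOP library lay below every MODP library, though narrowly. The log2 fold change of -0.26 ± 0.10 (SE) missed the threshold (edgeR adjusted p = 0.075). Blocked by column number it passed (edgeR adjusted p = 0.037), in a fit that called 41% of all tested genes; under upper-quartile scaling it passed as well (edgeR adjusted p = 0.038).

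Of the signalling genes, Myd88 and Irak2 rose and Irak3 missed the threshold. Myd88 (ENSMUSG00000032508), the adaptor, was at 81.7, 82.3 and 80.7 CPM in MOP and 59.4, 68.0 and 53.1 CPM in MODP. The MOP libraries were nearly equal and all above MODP, and the gene was 1.36-fold higher (log2 0.44 ± 0.09 SE, edgeR adjusted p = 0.0071). Its exons share 290 bases with Acaa1a on the opposite strand, so part of its reads is uncertain.

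Irak2 (ENSMUSG00000060477), a kinase of the complex that sustains signalling, was at 39.4, 36.4 and 31.7 CPM in MOP and 20.4, 22.8 and 19.1 CPM in MODP. The populations were well apart, at a fold change of 1.73 (log2 0.79 ± 0.11 SE, edgeR adjusted p = 0.0014). Of its 31-mers 15.6% also occur in other annotated genes, the highest share among the members.

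Irak3 (ENSMUSG00000020227) encodes IRAK-M, a brake known from macrophages. It was at 66.3, 65.6 and 70.3 CPM in MOP and 58.3, 63.2 and 57.9 CPM in MODP, with no overlap but a gap of only a few CPM. The log2 fold change of 0.17 ± 0.06 (SE) did not pass (edgeR adjusted p = 0.075). Without MODP replicate 2 it did (edgeR adjusted p = 0.033), as it did without replicate 2 of both populations (edgeR adjusted p = 0.045). Tmbim4 shares 192 bases of its exons on the opposite strand.

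Levels of different genes were compared as CPM per kilobase of annotated exon (GENCODE M21). In MOP the order ran from Myd88 at 31.7 ± 0.323 through Il18rap at 27.6 ± 3.13, Irak3 at 18.3 ± 0.696 and Il18r1 at 11.3 ± 3.14 to Irak2 at 8.12 ± 0.878 CPM per kilobase (SD, n = 3). Below these came Sigirr at 6.27 ± 0.432, Il1r2 at 4.395 ± 2.80, Il1rl1 at 4.21 ± 0.686, Il1rap at 2.75 ± 0.239 and Il1r1 at 0.846 ± 0.0360. The MOP libraries overlapped between Il18r1 and Irak2, between Sigirr and Il1r2, and between Il1r2 and Il1rl1, and not between the other neighbours in this order. In MODP, Myd88 at 23.4 ± 2.90 and Irak3 at 16.3 ± 0.804 led, followed by Il18rap at 10.4 ± 5.31 and Sigirr at 7.51 ± 0.531 CPM per kilobase. Irak2 at 4.70 ± 0.420, Il1r2 at 4.28 ± 4.21 and Il1rap at 3.08 ± 0.136 came next. Il18r1, Il1r1 and Il1rl1 were lowest there, at 2.00 ± 0.740, 1.72 ± 0.25 and 1.25 ± 0.222. Il1r1 was thus the lowest member in MOP, while in MODP its libraries overlapped with those of Il18r1, Il1rl1 and Il1r2. The MODP order is one of means. Il1r2, at 2.20, 9.12 and 1.51 CPM per kilobase in MODP replicates 1 to 3, also overlapped with Il18r1, Il1rap, Irak2, Sigirr and Il18rap. Il18rap in MODP replicate 2, at 16.4, lay among the Irak3 libraries.

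For each member past the threshold, the 3 genes with the most similar profile were sought among 8965 genes at a mean of at least 10 CPM. Pearson's r of log2 CPM was at least 0.99 for all of them, over the 6 libraries that all genes share, so the values mainly carry the split between populations and are a description. The closest to Il1rl1 were Ggnbp2, Cyp11a1 (an enzyme gene on the basophil and mast cell list) and Rap2a. Rit1, Arl6ip5 and Fxyd5 were closest to Il18r1, and Zfp687, Simc1 and Peak1 to Il1r1. Pacs1, Cd52 and Adgre1, the macrophage marker F4/80, were closest to Myd88, and Ep300, Sap25 and 4930503L19Rik to Irak2.

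Ligands of the family differed widely in level. Per kilobase of exon, Il1b was at 8.24 ± 6.09 CPM in MOP and 8.91 ± 8.59 CPM in MODP (SD, n = 3). Of 15 listed symbols 7 were in the table and 5 were tested. The list holds older and newer names of the same interleukin 36 genes, so these counts are not shares of genes. It also includes Il18bp, the gene of a binding protein. Of the tested genes 0 rose, 0 fell and the median log2 fold change was 0.51. Over all tested genes 16.3% rose, 14.9% fell and the median was -0.01. Counts of 0 among 5 genes stand near these shares. Il1b, the most abundant, was at 10.1, 29.1 and 7.96 CPM in MOP replicates 1 to 3 and 10.4, 35.7 and 4.99 CPM in MODP replicates 1 to 3. It was highest in replicate 2 of both populations, as the neutrophil marker sum was. Its log2 fold change of -0.08 ± 0.95 (SE) had edgeR adjusted p = 0.96, and was 0.25 without both replicate 2 libraries (edgeR adjusted p = 0.63). Il1rn, the interleukin 1 receptor antagonist, and Il1f9, which encodes interleukin 36γ, were also highest in replicate 2 of both populations. Il1f9 had a log2 fold change of 0.67 ± 0.76 (SE, edgeR adjusted p = 0.56), and 0.87 without both replicate 2 libraries (edgeR adjusted p = 0.11). Il1rn had a log2 fold change of 0.76 ± 0.86 (SE, edgeR adjusted p = 0.56). It passed at 2.13 without MODP replicate 2 (edgeR adjusted p = 0.018) and at 1.68 when both replicate 2 libraries were dropped (edgeR adjusted p = 0.0081). Il33 and Il1a, at or below 0.564 CPM in every library, were too low to test.

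On the list of the IRAK, TRAF6 and MAP kinase branch, 24 kinase, ubiquitin enzyme, adaptor and NF-κB subunit genes were tested. Of these, 9 rose in MOP (16.3% of all tested genes did), 1 fell (14.9% did) and 14 did not pass. Their median log2 fold change was 0.17. The higher genes were Irak4, Tab2, Map3k7, Peli1, Chuk, Ikbkb, Map2k3, Mapk14 and Nfkb1, at log2 0.18 to 0.39. The largest of these was Peli1, a ubiquitin ligase gene, at 41.8 ± 2.09 CPM in MOP and 31.9 ± 0.647 CPM in MODP (SD, n = 3; edgeR adjusted p = 0.0046). Its relative Peli2 was the lower gene, at 24.8 ± 2.65 CPM in MOP and 30.5 ± 0.914 CPM in MODP (edgeR adjusted p = 0.043). The kinase gene Map3k8, singled out after its values were seen, had the largest difference on the list, at 16.2 ± 3.42 CPM in MOP and 8.70 ± 3.62 CPM in MODP without overlap. Its log2 fold change of 0.91 ± 0.33 (SE) had edgeR adjusted p = 0.083, and 0.0054 when blocked by column number. Peli1 and Ikbkb, the kinase gene that activates NF-κB, kept their calls in all 14 alternative fits. The count of higher genes was 2 without MOP replicate 1 and 5 without MOP replicate 2, MOP replicate 3 or MODP replicate 1, 4 without MODP replicate 3, 5 under upper-quartile scaling, 6 without both replicate 2 libraries or without the filter on low counts, and 11 when blocked by column number. Of the lower genes, 0 were left by DESeq2 and without MOP replicate 1, MOP replicate 3, MODP replicate 1 or MODP replicate 3. There were 2 without MODP replicate 2, under upper-quartile scaling and under either block, by column or by title. The counts over all tested genes moved between these fits too. Of all genes, higher in MOP were 2095 in the main fit, 1281 without MOP replicate 1 and 1692 under upper-quartile scaling. Blocked by column number, 2724 of all genes were higher. Without both replicate 2 libraries the higher count rose over all genes, while that of the list fell.

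Among 12 intracellular brakes Tollip, which binds IRAK kinases, was the 1 gene to rise, at 114 ± 4.86 CPM in MOP and 94.2 ± 6.87 CPM in MODP (SD, n = 3; edgeR adjusted p = 0.017). None fell, and the median log2 fold change was 0.12, where 16.3% of all tested genes rose and 14.9% fell. Blocked by column number, 4 of the brakes rose and 1 fell, beside 2724 and 2544 of all 12850 tested genes. The count of higher genes was 2 when MODP replicate 2 or both replicate 2 libraries were dropped, and 0 without MOP replicate 1, MOP replicate 2, MODP replicate 1 or MODP replicate 3. Tnfaip3, the NF-κB brake A20, stood at 822, 676 and 299 CPM in MOP replicates 1 to 3, against 406, 408 and 145 CPM in MODP replicates 1 to 3. It was lowest in replicate 3 of both populations. Its edgeR adjusted p was 0.33, and 6.87e-05 when blocked by column number.

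Of 10 genes that process interleukin 1 and interleukin 18, 5 rose in MOP, 0 fell and 5 did not pass. Their median log2 fold change was 0.11, and 16.3% of all tested genes rose. Nlrp3, the sensor of the inflammasome, was at 123, 103 and 78.1 CPM in MOP and 40.2, 43.0 and 23.1 CPM in MODP, well apart (log2 1.53 ± 0.30 SE, edgeR adjusted p = 0.017). The other higher genes were the sensors Nlrp1b and Mefv, the adaptor Pycard and the pore-forming Gsdmd, at log2 1.33, 0.56, 0.27 and 0.19. Casp1, the protease that cleaves both cytokines, had a log2 fold change of -0.07 (edgeR adjusted p = 0.55). Only Mefv kept its call in all 14 alternative fits. The count of higher genes was 1 without MOP replicate 1, 2 without MOP replicate 2 or MODP replicate 1 and 3 without MODP replicate 3.

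Of 14 tested target genes of NF-κB, 6 rose in MOP, 0 fell and 8 did not pass. Their median log2 fold change was 0.56, and 16.3% of all tested genes rose. Blocked by column number, 11 of the targets rose, beside 2724 of all 12850 tested genes. With 1 library left out 4 to 7 of the targets rose, and without both replicate 2 libraries 4 did. Il6 was at 18.1, 13.8 and 12.4 CPM in MOP and 1.15, 1.41 and 0.422 CPM in MODP, far apart in every library (log2 3.92 ± 0.35 SE, edgeR adjusted p = 0.00039). Its MODP levels rest on only 14, 15 and 6 reads in replicates 1 to 3. The chemokine gene Ccl3 was at 539, 336 and 377 CPM in MOP and 102, 105 and 62.3 CPM in MODP (log2 2.22 ± 0.30 SE, edgeR adjusted p = 0.0061). Ccl2, Ccl4, Bcl3 and the survival gene Birc3 rose by log2 1.72, 1.82, 0.71 and 0.40. Ccl4 lost its call in 9 of the 14 alternative fits, with an edgeR adjusted p of up to 0.12. Of the 14 tested genes 10 were lowest in replicate 3 of both populations, among them Nfkbiz at 250, 224 and 103 CPM in MOP replicates 1 to 3 and 144, 169 and 65.8 CPM in MODP replicates 1 to 3. The basophil and mast cell marker sum was higher in the same MOP libraries, and its part in these differences was not tested.

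**Figure D5:**
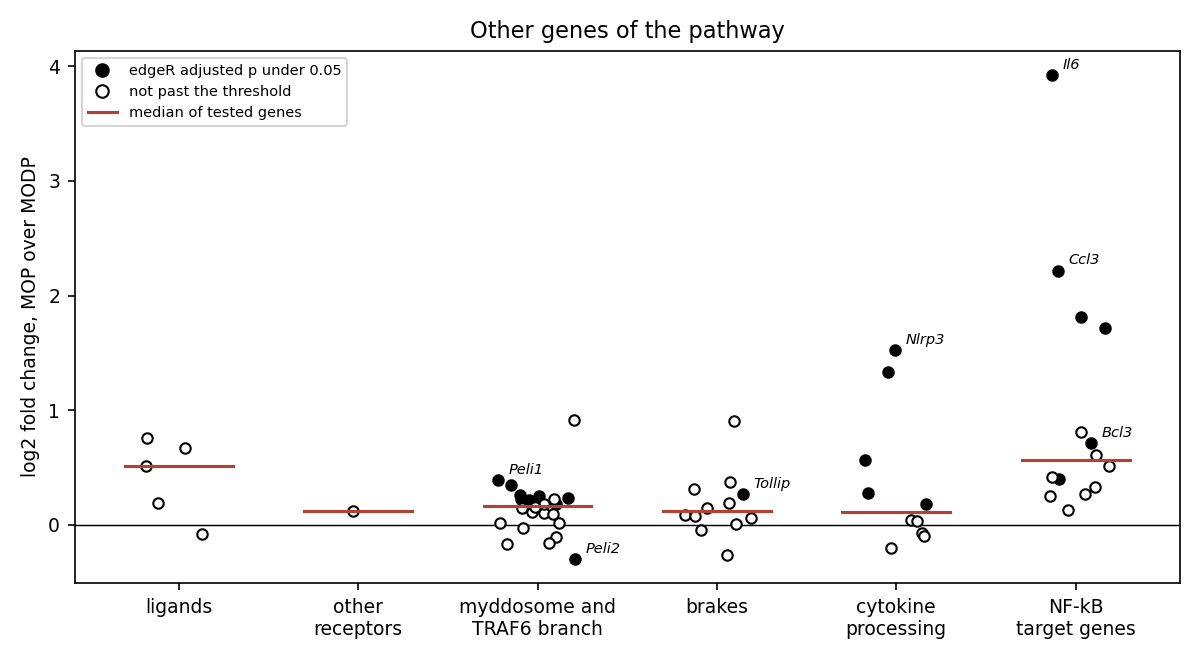
Log2 fold change of MOP over MODP for each tested gene of the 6 pathway lists, with filled points past the threshold and a line at each list's median. Il6 (3.92), Ccl3 (2.22) and Nlrp3 (1.53) lie far above their lists' medians, and the IRAK, TRAF6 and MAP kinase branch stays within 1 log2 unit.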

How the data were processed

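RNA was extracted with TriZol and made into TruSeq RNA libraries, per the labels' protocols. The authors deposited raw read counts per Ensembl gene, without normalization. TopHat 1.4 and HTSeq are listed in the submitters' processing notes. Genome build, annotation and strand setting: not given in the sources used here. Gene symbols came from GENCODE M21 by identifier (20840 of 22271 matched).

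The members, lists and tests were chosen with earlier results of these data known. Counts were filtered with filterByExpr, scaled by TMM and tested with edgeR 4.0.16 (R 4.3.3; quasi-likelihood, robust, population as the only factor), adjusted over all 12850 tested genes. SE and 95% intervals were derived from the same F statistics. Ratios used a prior count of 0.5. The code was checked on simulated counts. Alternatives were upper-quartile and RLE scaling, DESeq2 1.42.0, 2 other filters, each library left out, replicate 2 of both populations left out, and blocks.

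The last pair of columns carries the number 3 where the sample titles have 1, and was matched to its samples by the leading number and the population code. Libraries with the same column number deviated together from their group means (r = 0.58, 0.60 and 0.51 over 9415 genes, other pairs -0.46 to 0.06). These numbers were taken as pairs in the fits blocked by column number only. The main fit and the exact permutation tests did not use the pairs. The block fit called 41% of all tested genes, against 31.2% in the main fit. No replicates matched within sampling noise: chi-square per degree of freedom was at least 7.44. Named genes were all 10 members, the pathway list members past the threshold or else the most abundant, and the 3 genes most like each called member; any further gene was picked with its values in view.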

Additional observations from a re-analysis of the deposited data

How the results depend on the processing

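Calls for Il1r1, Il1rl1, Il18r1, Myd88 and Irak2 and their directions held in all 14 alternative fits, and 5 to 7 members passed. The number of lower members became 2 under upper-quartile scaling and 2 with the column number as a replicate block, through Sigirr in both. Blocking changed no other member's call. Without 1 library the count over all genes ran from 2317 to 4799 (4008 with all), with 1281 to 2524 higher and 1036 to 2275 lower; the lowest values of all 3 came without MOP replicate 1. Of all genes, higher in MOP were 1692 under upper-quartile scaling (2095 under TMM), and of all genes, lower in MOP were 2452 (1913 under TMM). Il1r2 reversed without MOP replicate 2 and without MODP replicate 1 or 3, over a range of log2 -0.60 to 1.26. Il1b reversed in 6 fits, at log2 0.25 without both replicate 2 libraries, 0.020 with the column number and 0.018 with the title number as a block, and -0.89 to 1.06 without 1 library. The ratio of Il18r1 to basophil and mast cell markers ran from log2 -0.21 to 0.086 without 1 library. The causes were not tested. Il1r1 and Il1r2 rest on 41 to 227 reads per library.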
